A study of Mus musculus with 12 samples.

Results

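The Cyp2 and Cyp3a families are the liver's main drug-metabolizing cytochromes P450. Their transcripts were followed across 12 liver libraries of female mice, together with Por, Nr1i2 and Nr1i3. The genes were taken by name: every row of the count table whose symbol belongs to Cyp2 or Cyp3a, plus those 3, with at least 10 counts in at least 3 libraries. Of 62 matching rows among 22537 in the table, 49 met this minimum, 46 of them Cyp genes. The rule itself uses names and this minimum, and no difference between groups. Of the 13 rows below the minimum, Cyp2d11 had 80 counts over all libraries, 7 others had 2 to 38, and 5 (Cyp2c66, Cyp2c53-ps, Cyp2j12, Cyp2w1 and Cyp3a41b) had none.

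The study sequenced poly-A RNA from liver, with 3 libraries in each of 4 groups. All mice were adult C57BL/6 females, 6 months of age, that had eaten a high-fat diet for 13 weeks. AHR Flox and ARNT Flox mice carried recombination sites in Ahr or Arnt, and AHR KO and ARNT KO mice are labelled as knockouts of the same gene. The sources used here do not name the recombinase line, the deleted stretch of either gene or the cells that lost it. The labels number the libraries of a group 1 to 3 but do not state that each is a separate mouse, so p-values measure the spread between these samples.

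Cytochromes P450 of these families sit in the membrane of the endoplasmic reticulum and oxidize drugs, steroids and fatty acids. They take electrons from NADPH through Por, the P450 oxidoreductase that all of them share. Nr1i3 encodes CAR and Nr1i2 encodes PXR, nuclear receptors that respond to foreign compounds and switch on Cyp2b, Cyp2c and Cyp3a genes. AHR is a ligand-activated transcription factor that binds DNA as a dimer with ARNT, and its best known liver targets are in the Cyp1 family, not in these families. ARNT is also the partner of the hypoxia-inducible factors.

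By chromosome of GRCm38 (mm10), 8 Cyp2d genes lie on chromosome 15, 13 Cyp2c genes on chromosome 19, 13 genes of the Cyp2a, 2b, 2e, 2f, 2g, 2r, 2s and 2t subfamilies on chromosome 7, and the 8 Cyp3a genes and Por on chromosome 5. Many are neighbouring copies, but Cyp2e1 and Cyp2r1 lie far from the other genes of chromosome 7, and Por and Cyp3a13 from the other Cyp3a genes. RefSeq (GRCm38.p6) promoter windows, the 250 bases before a listed start, were found for 41 of the 49 genes (43 windows). The listed start is not always the RefSeq start of the gene. Some windows run past the gene's start, as for Cyp2b13 and Cyp2b9, and those of Cyp2j6 and Cyp3a13 lie wholly inside the gene. The pairs Cyp2b13 with Cyp2b9 and Cyp2a4 with Cyp2a5 are shown because the members of each pair have almost the same promoter, and their levels can be compared below. Over the windows, which here include bases inside the gene, Cyp2b13 and Cyp2b9 were identical at 248 of 250 bases. Cyp2a4 and Cyp2a5 were identical at 245 of 249. Over the printed bases alone it was 141 of 143 and 212 of 216. Por is shown for the AHR:ARNT core motif. Each is written 5′ to 3′ on the plus strand and is cut short of the window's end, before the RefSeq start of the gene or the first base of an exon in GENCODE M21, and at the same base within a pair. The 33 to 109 bases of each window next to its start are not printed. The Por stretch lies before the exon of a start inside the gene, and longer Por transcripts begin further upstream. Cyp2b13 is chr7:26061245-26061387, Cyp2b9 is chr7:26173159-26173301, Cyp2a4 is chr7:26306943-26307158, Cyp2a5 is chr7:26835089-26835304 and Por is chr5:135688895-135689035.
Cyp2b13: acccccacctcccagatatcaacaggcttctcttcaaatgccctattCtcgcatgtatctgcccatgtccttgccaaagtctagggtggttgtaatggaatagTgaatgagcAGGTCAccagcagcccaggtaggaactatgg
Cyp2b9: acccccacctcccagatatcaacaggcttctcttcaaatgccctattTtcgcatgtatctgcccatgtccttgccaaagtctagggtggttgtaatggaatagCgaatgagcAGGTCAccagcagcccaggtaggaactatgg
Cyp2a4: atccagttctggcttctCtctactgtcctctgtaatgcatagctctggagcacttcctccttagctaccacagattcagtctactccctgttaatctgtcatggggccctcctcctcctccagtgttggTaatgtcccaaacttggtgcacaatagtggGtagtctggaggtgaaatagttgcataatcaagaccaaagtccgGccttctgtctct
Cyp2a5: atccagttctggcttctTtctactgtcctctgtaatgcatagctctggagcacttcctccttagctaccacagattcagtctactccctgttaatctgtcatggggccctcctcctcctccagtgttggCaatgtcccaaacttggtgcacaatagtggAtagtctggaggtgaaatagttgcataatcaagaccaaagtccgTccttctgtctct
Por: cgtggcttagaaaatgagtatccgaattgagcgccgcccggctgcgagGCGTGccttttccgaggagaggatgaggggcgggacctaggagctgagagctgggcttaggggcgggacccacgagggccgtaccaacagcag
Single capitals mark the bases at which a pair differs. With positions counted from the first printed base and the first-named gene's base written first, these are C48T and T104C between Cyp2b13 and Cyp2b9. Between Cyp2a4 and Cyp2a5 they are C18T, T130C, G160A and G204T. The run of capitals in both Cyp2b genes is the nuclear receptor half-site AGGTCA, and that in Por is the AHR:ARNT core GCGTG. Por had 3 such matches in its full window. Of the other genes, Cyp2j9, Cyp2b10 and Cyp2c68 had a match.

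In all, 5 motifs were searched on both strands of all 43 windows and of all 32851 windows in the table. GCGTG was in 4 of the 43 (9.3%, against 28.2% of all windows), and ACGTG, the core of the HIF:ARNT motif, in 3 (6.98%, against 16.6%): those of Nr1i3, Cyp2j6 and Cyp2e1. AGGTCA was in 14 (32.6%, against 14%), TATAAA in 19 (44.2%, against 12.4%) and TTCNNNGAA, the STAT5 motif, in 0 (against 7.02%). These counts describe letters in 250 bases and not binding. Some of the windows hold bases inside the gene, and that of Cyp2j6 holds no others. No other region was searched.

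Total counts ran from 23585909 to 33255004 per library. ARNT KO 3 stood apart from the other 11 libraries: it lay at 54.9 on the first principal component (45.4% of the variance), against -25.5 to 24 for the rest. Summed cholangiocyte markers (5 genes) were 308 CPM there and 45.8 to 112 CPM elsewhere, and Kupffer cell markers (6 genes) were 628 CPM against 293 to 463. CPM is a count scaled to a common library total with TMM factors. With it, 3 counts equal 0.0861 to 0.126 CPM, which is the least level that can be told from 0 here. The summed endothelial, stellate and lymphocyte markers of ARNT KO 3 lay within the range of the others. The endothelial marker Lyve1, however, was 30.3 CPM there and at most 13.1 CPM elsewhere, and Pecam1 was 26.6 CPM against at most 24 CPM. Pancreas markers were at most 0.157 CPM in any library. Of 4 erythrocyte markers 3 were at 0 in all libraries, and the other, Alas2, was 13.4 to 29.6 CPM. Why those 3 were at 0 was not tested. Summed hepatocyte markers (7 of 8) were 105690 to 114652 CPM in AHR Flox, 92356 to 112821 in ARNT Flox, but 33437 to 35950 in AHR KO. In ARNT KO they were 80618, 80867 and 27357 CPM, lowest in replicate 3. Albumin made this difference. Without Alb the sums were 25377 to 27257 in AHR Flox, 27946.5 to 28861.5 in AHR KO, 22148 to 24927 in ARNT Flox, and the ARNT KO libraries had 28692, 27182 and 21617. Arnt was at 47.8 to 52.5 CPM in ARNT Flox and 19.0 to 25.2 CPM in ARNT KO. Ahr was at 53.9 to 78.8 CPM in AHR Flox and 80.3 to 94.8 CPM in AHR KO, so counts over the whole gene did not check the AHR KO label. Results below are given for all 12 libraries and without ARNT KO 3. In bulk liver, fewer cells of a type cannot be told apart from less RNA per cell.

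Cyp2e1, which oxidizes ethanol and paracetamol, had the highest mean level over the 12 libraries of the 48 genes with a known length, at 5362 CPM per kilobase of exon. It was also first in each group mean, but in ARNT KO 3 it stood at 1768 CPM per kilobase, below Cyp2a5 at 2037. Over all libraries it was followed by Cyp2a5, the coumarin hydroxylase, at 1125, Cyp2d26 at 802, Cyp2a4, a steroid hydroxylase, at 694 and Cyp3a11, the main PXR-inducible Cyp3a gene, at 621. Por stood at 323, above Nr1i3 at 85.4 and Nr1i2 at 46.9 on the same scale. Cyp2c37 led the Cyp2c genes at 405, Cyp2b13 the Cyp2b genes at 288 and Cyp2j5 the Cyp2j genes at 259. Several of these ranks turned with the group. In ARNT Flox, Cyp2a4 (978) stood above Cyp2d26 (668), Cyp2c70 (334) and Cyp2c29 (307) above Cyp2c37 (198), and Cyp2b9 (220) above Cyp2b13 (101). In the mean of ARNT KO, Cyp2c70 (278) stood above Cyp2c37 (263), all per kilobase. That last order rested on ARNT KO 3, where Cyp2c70 was 272 and Cyp2c37 77.6 per kilobase. In ARNT KO 1 and 2 Cyp2c37 was the higher, at 742 and 557 CPM against 512 and 454 CPM. At the other end, 6 genes were below 1 CPM per kilobase: Cyp2u1 (0.750), Cyp2c55 (0.612), Cyp2d12 (0.254), Cyp2t4 (0.237), Cyp3a57 (0.166) and Cyp2s1 (0.140). No gene length was found for Cyp2d13. RefSeq lists Cyp2d13 as a transcribed pseudogene, as it does Cyp2d37-ps.

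The 46 Cyp genes together took 2.30% ± 0.199 of all counts in AHR Flox (SD, n = 3) and 3.14% ± 0.273 in AHR KO. They took 2.25% ± 0.0851 in ARNT Flox (libraries 2.17% to 2.34%), close to the ARNT KO mean of 2.31% ± 0.215. The closeness of these means rested on ARNT KO 3, which at 2.06% lay below every ARNT Flox library. Replicates 1 and 2 of ARNT KO, at 2.46% and 2.40%, lay above every ARNT Flox library. The AHR KO libraries, at 3.45%, 2.91% and 3.08%, were the 3 highest of the 12. Cyp2e1 alone took 0.905% ± 0.0794 in AHR Flox and 1.41% ± 0.252 in AHR KO. In ARNT KO it took 0.961% and 0.970% in replicates 1 and 2 and 0.387% in replicate 3. Its part of all Cyp counts ran from 18.8% in ARNT KO 3 to 48.5% in AHR KO 1. In ARNT KO 3 the 4 Cyp2a genes held 0.924% of all counts, more than Cyp2e1, while in the other 11 libraries they held 0.268% to 0.574%. Shares are of all counts, and Alb, at 69704 to 89274 CPM in the Flox lines, was 5491 to 7088 CPM in AHR KO and 5740 CPM in ARNT KO 3. The part of Alb in these shares was not tested.

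**Figure D1:**
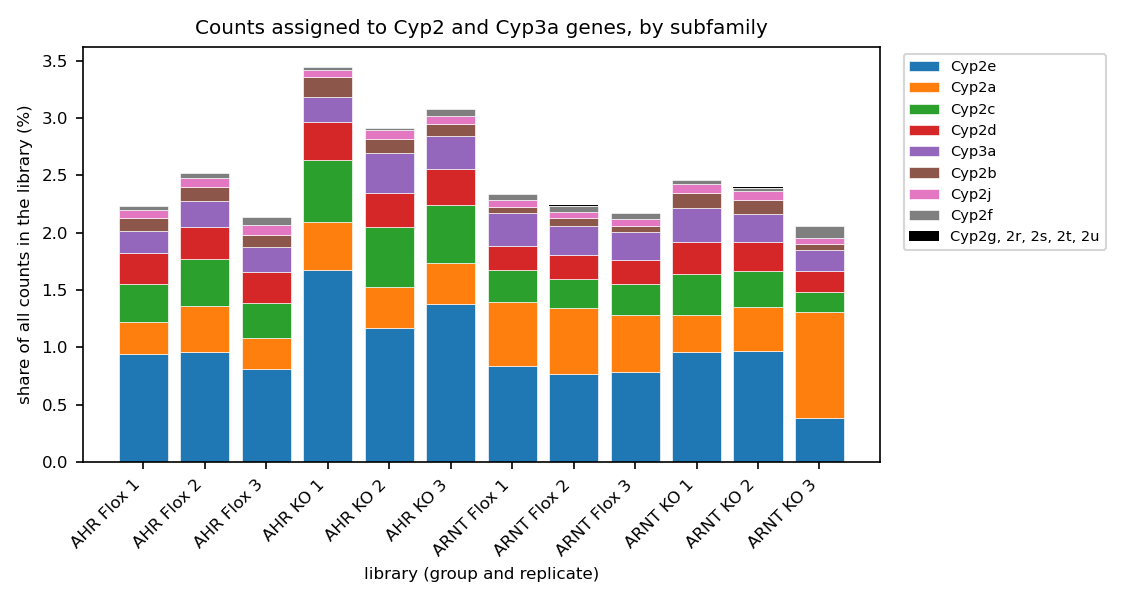
Each bar is 1 library and its height is the share of all counts (%) assigned to the 46 Cyp2 and Cyp3a genes, stacked by subfamily. The AHR KO libraries reach 2.91% to 3.45% and the other 9 lie between 2.06% and 2.52%, and in ARNT KO 3 the Cyp2a share (0.924%) is larger than the Cyp2e share (0.387%).

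Counts of close copies are uncertain where reads fit more than 1 gene. Of the 48 genes with a GENCODE M21 model, 17 shared over 20% of their 50-base windows with another gene and 12 shared none. Cyp2d13 had no model, so its sharing could not be checked. Cyp3a41a shared 98.6%, mostly with Cyp3a41b, which was listed at 0 in all libraries, so the pair cannot be told apart. Cyp2c40 shared 72.1%, Cyp2c69 54.8%, Cyp2c67 52.8%, Cyp2a5 40.8%, Cyp2a4 38.0%, Cyp2c37 30.1%, Cyp2d9 29.0%, Cyp2b13 27.3%, Cyp2c54 25.7%, Cyp2c50 16.6% and Cyp2b9 11.2%. Cyp2g1 shared 5.79%, Cyp2e1 4.77% and Cyp2u1 3.14%. Por, Nr1i2, Nr1i3, Cyp2c44, Cyp2c70, Cyp3a11, Cyp3a13, Cyp2f2, Cyp2r1, Cyp2s1, Cyp2t4 and Cyp2j9 shared none. The sources used here do not say how the authors' counting treated such reads.

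**Figure D2:**
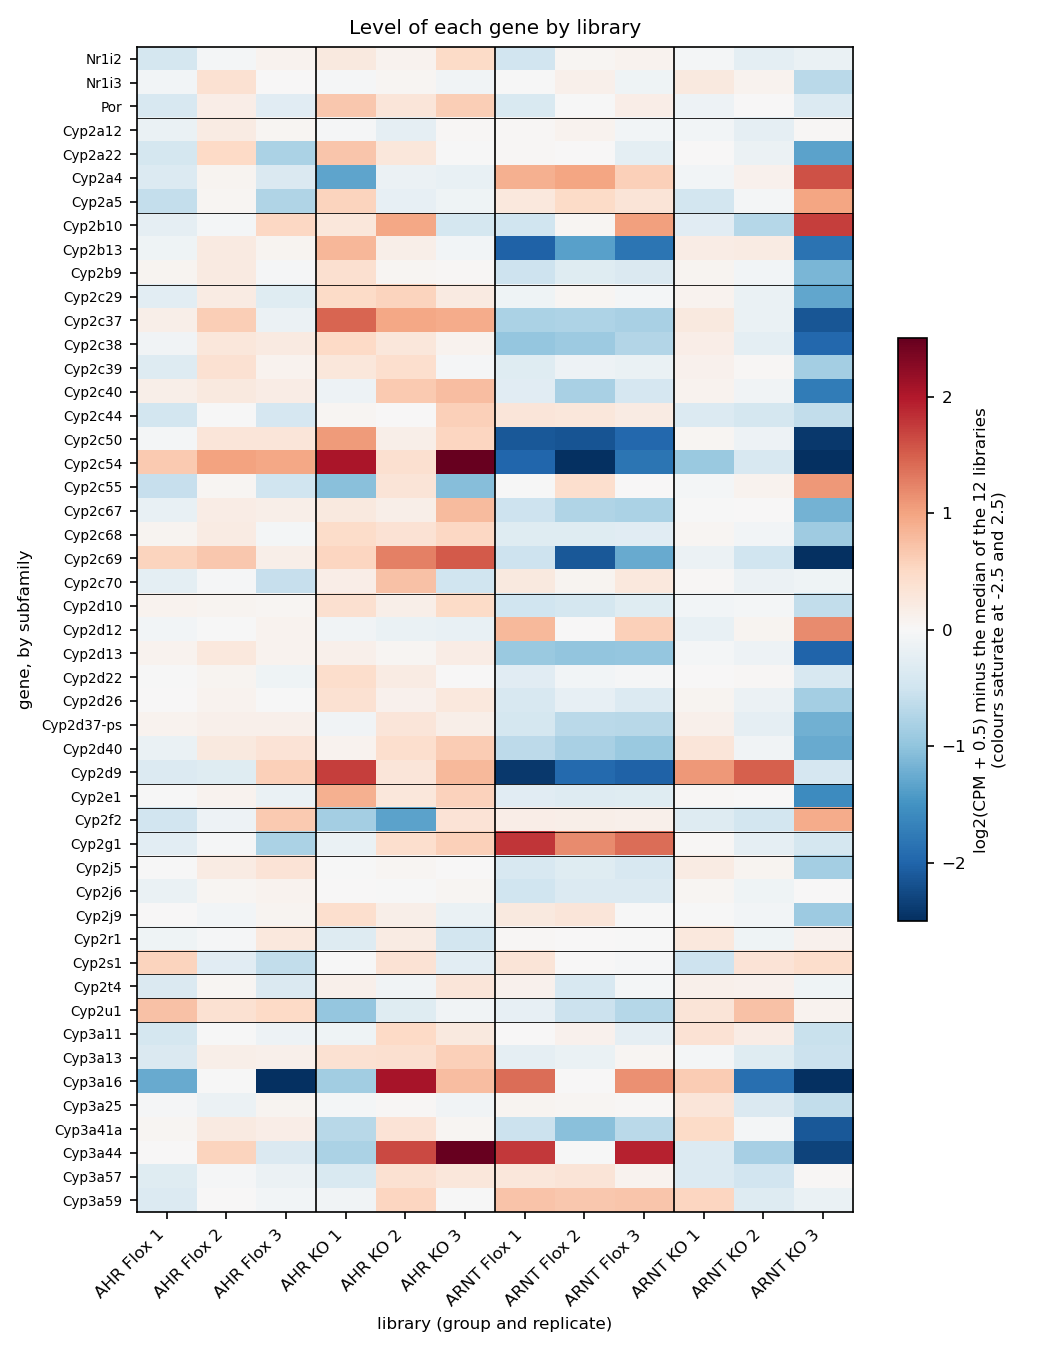
Rows are the 49 genes by subfamily and columns the 12 libraries. Colour is log2(CPM + 0.5) minus the gene's median over the 12 libraries. The ARNT Flox columns are blue for Cyp2b13, Cyp2c37, Cyp2c50, Cyp2c54, Cyp2d9 and Cyp2d13, and ARNT KO 3 is the lowest column for 27 of the 49 genes.

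ARNT KO 3 was the lowest of the 12 libraries for 27 of the 49 genes (55.1%, against 21.5% of all genes tested). Among them were Cyp2e1, Cyp2c37, Cyp2c50, Cyp2d13, Cyp2d26, Cyp2b9, Cyp3a11 and Nr1i3. It was the highest for 6 (12.2%, against 23.4%): Cyp2a4, Cyp2a5, Cyp2b10, Cyp2c55, Cyp2d12 and Cyp2f2. Cyp2e1 was 9788 and 9660 CPM in ARNT KO 1 and 2 and 3251 CPM in ARNT KO 3, below every other library. Cyp2a4 was 903 and 1019 CPM and then 2873 CPM, above every other library. Cyp2f2, known for naphthalene oxidation, was 369 and 337 CPM and then 875 CPM. Cyp2b10, the classical target of phenobarbital and CAR, was 1.12 and 0.699 CPM and then 5.97 CPM, its highest value. The part of the cholangiocyte and Kupffer cell markers, which were highest in the same library, was not tested.

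The first comparison asks how these genes differ in livers labelled AHR KO from AHR Flox. The AHR KO livers held more Por, Cyp2e1, Cyp2c37 and Cyp3a13 RNA in every library than any AHR Flox liver, and less Cyp2u1. No member passed the test: 0 of 49 had an adjusted p under 0.05 in edgeR's quasi-likelihood test with Benjamini-Hochberg adjustment (0.0788% of all 13968 genes did), also without ARNT KO 3 (0 of 49, against 0.966%). At an unadjusted p under 0.05 there were 8 of 49 (16.3%, against 11.9% of all genes), and 18 (36.7%, against 16.8%) without ARNT KO 3. DESeq2, which gave an adjusted p to 43 of the 49, called 2, Por and Cyp2u1 (3.19% of all genes). Limma-voom called 0 (0.0716%). The log2 change was above 0 for 37 of 49 genes (75.5%, against 51.1% of all genes), with a median of 0.29 against 0.01.

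Por was 636, 939 and 684 CPM in AHR Flox and 1324, 1027 and 1285 CPM in AHR KO. The groups did not overlap. The log2 change was 0.69 ± 0.19 (SE; adjusted p = 0.16 in edgeR and 0.0186 in DESeq2). The 2 receptors did not separate in the same way: Nr1i2 was 89.0, 117 and 128 CPM in AHR Flox and 142, 128 and 168 CPM in AHR KO, and Nr1i3 was 264 to 359 CPM and 260 to 287 CPM. Nr1i2 had a log2 change of 0.39 ± 0.17 (adjusted p = 0.39) and Nr1i3 one of -0.14 ± 0.20 (adjusted p = 0.84). For both receptors the groups overlapped, for Nr1i2 only by 128.4 CPM in AHR Flox 3 against 128.1 CPM in AHR KO 2. Nr1i2 was among the 8 members with an unadjusted p under 0.05 in edgeR, and Nr1i3 was not.

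Cyp2e1 was 9583, 10157 and 8573 CPM in AHR Flox and 17766, 11757 and 14412 CPM in AHR KO. The lowest AHR KO liver was above the highest AHR Flox liver. The log2 change was 0.63 ± 0.35 (adjusted p = 0.51), and without ARNT KO 3 it was 0.63 ± 0.15 (adjusted p = 0.071). Cyp2c37 was 691, 959 and 566 CPM and then 1710, 1230 and 1189 CPM, again without overlap, with a log2 change of 0.90 ± 0.44 (adjusted p = 0.45), or 0.89 ± 0.20 (adjusted p = 0.055) without ARNT KO 3. ARNT KO 3 is in neither of these groups. It enters this comparison through the spread that all groups share, the scaling and the set of genes tested (13968 with it and 14073 without it).

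Cyp3a13 was 164, 233 and 229 CPM in AHR Flox and 275, 276 and 319 CPM in AHR KO (log2 change 0.48 ± 0.16, adjusted p = 0.25). Cyp2c44, which oxidizes arachidonic acid to epoxides, was 187, 256 and 194 CPM and then 268, 262 and 389 CPM (0.53 ± 0.17, adjusted p = 0.22). Both were without overlap. Groups did not overlap with AHR KO higher for 9 members (18.4%, against 11.7% of all genes). These were Por, Cyp2e1, Cyp2c37, Cyp2c29, Cyp2c68, Cyp2c44, Cyp2d10, Cyp2d26 and Cyp3a13. They did not overlap with AHR KO lower for 2 (4.08%, against 9.46%), Cyp2u1 and Cyp2d12. Cyp2u1, a fatty acid hydroxylase, was 5.69, 4.34 and 4.76 CPM in AHR Flox and 1.40, 2.49 and 2.98 CPM in AHR KO. Its log2 change was -1.10 ± 0.28 (adjusted p = 0.14 in edgeR and 0.0108 in DESeq2). In the AHR KO libraries the hepatocyte marker sum with Alb was lower and that without Alb was higher than in AHR Flox. Of the 6 lymphocyte markers, 4 had an unadjusted p under 0.05 and 0 an adjusted p under 0.05 (median log2 change 0.62), and their sum was 4.51 to 6.03 CPM in AHR Flox and 5.68 to 7.99 CPM in AHR KO. The part of both in these values was not tested.

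The AHR KO libraries spread widely for 2 female-predominant Cyp3a genes. Cyp3a44 was 15.5, 23 and 11.9 CPM in AHR Flox and 8.69, 49.7 and 112 CPM in AHR KO. Cyp3a16 was 38.6, 92.1 and 9.32 CPM and then 50.8, 391 and 160 CPM. In both, AHR KO 2 and AHR KO 3 lay above the AHR Flox range. AHR KO 1 lay below it for Cyp3a44 and inside it for Cyp3a16. Cyp3a44 had a log2 change of 1.75 ± 0.78 (adjusted p = 0.41).

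**Figure D3:**
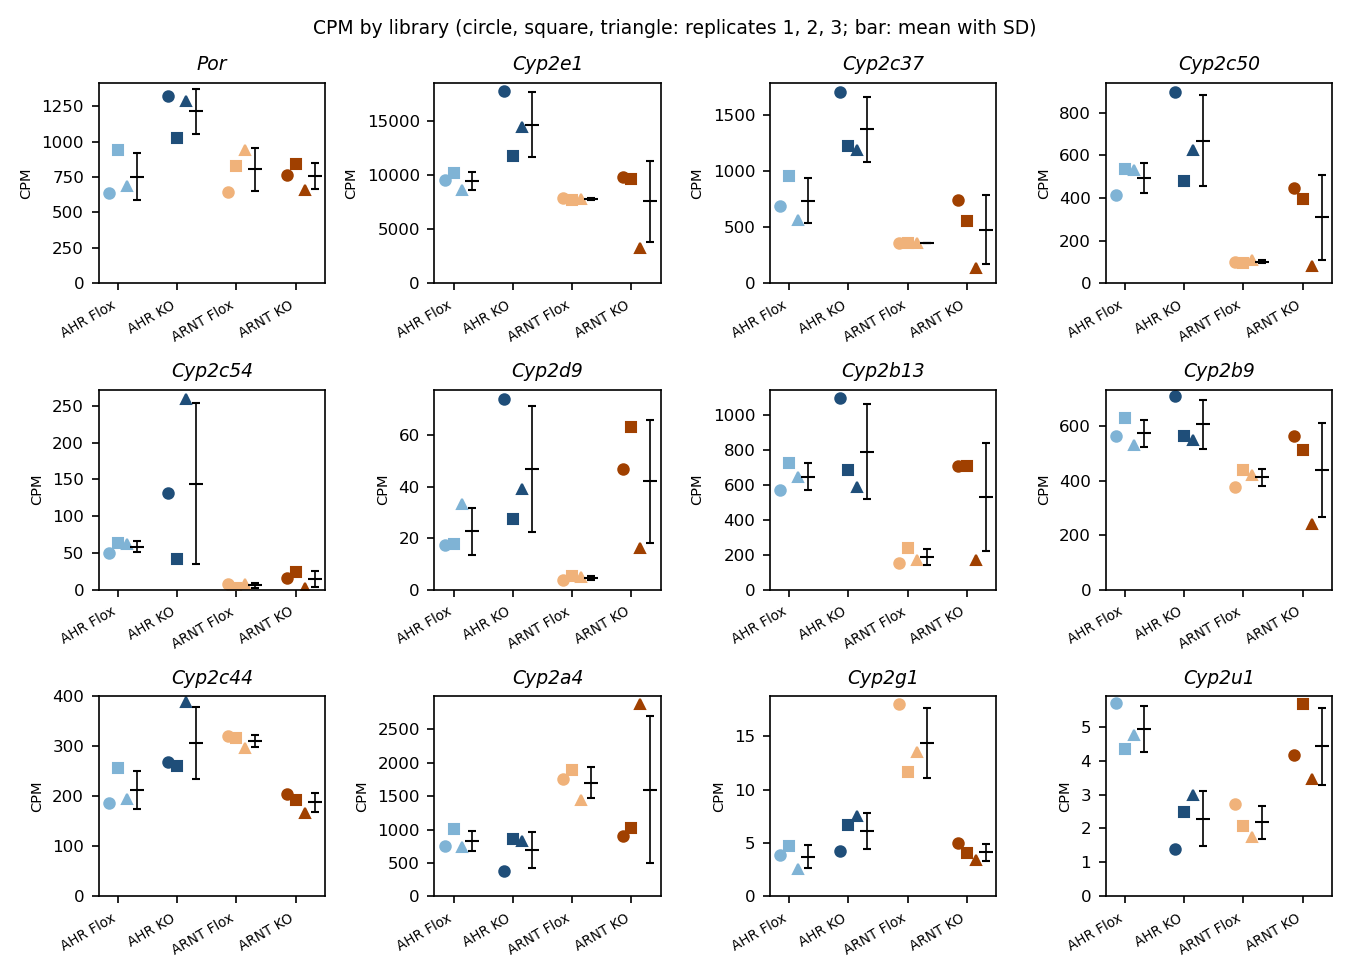
Each panel shows 1 gene, with CPM on a linear axis from 0 by group. Circles, squares and triangles are replicates 1, 2 and 3, and the bar is the mean with its SD (n = 3). ARNT KO 3 (triangle) lies far from the other ARNT KO libraries for Cyp2e1, Cyp2c50, Cyp2b13 and Cyp2a4, and ARNT Flox is the lowest group for Cyp2c54 and Cyp2d9 and the highest for Cyp2g1.

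The second comparison asks how the same genes differ in ARNT KO from ARNT Flox livers. With all 12 libraries 1 member of 49 passed the test, Cyp2g1, which was lower in ARNT KO (0.0573% of all genes were called, 0.0358% as lower). At an unadjusted p under 0.05 there were 10 of 49 (20.4%, against 5.88% of all genes). DESeq2 called 4 (0.402% of all genes): Cyp2d9 and Cyp2j6 as higher, Cyp2c44 and Cyp2g1 as lower. Limma-voom called 0. Without ARNT KO 3, 8 members passed (1.37% of all genes), 7 higher (0.370% of all genes) and Cyp2g1 lower (1% of all genes). The 7 were Cyp2d9, Cyp2d13, Cyp2d40, Cyp2c38, Cyp2c50, Cyp2j5 and Cyp2b13. ARNT KO then holds 2 libraries, and the fit pools the spread over all groups.

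Cyp2g1, best known from the olfactory mucosa, was 18, 11.6 and 13.5 CPM in ARNT Flox and 4.97, 4.04 and 3.42 CPM in ARNT KO. The groups were well apart. It fell by 1.80 ± 0.27 on the log2 scale (adjusted p = 0.0485), and by 1.67 ± 0.29 without ARNT KO 3 (adjusted p = 0.0188). The call was lost in 13 of 20 alternatives, with adjusted p up to 0.27. In the AHR lines Cyp2g1 was 3.92, 4.68 and 2.57 CPM in AHR Flox and 4.23, 6.67 and 7.53 CPM in AHR KO. ARNT KO was thus in the range of the AHR lines and ARNT Flox above it.

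Cyp2d9, a testosterone hydroxylase that is higher in male than in female liver, was 3.72, 5.35 and 5.03 CPM in ARNT Flox and 46.9, 63.1 and 16.2 CPM in ARNT KO. Every ARNT KO liver was above every ARNT Flox liver, replicate 3 least. The log2 change was 3.16 ± 0.52 with all libraries (adjusted p = 0.115), and without ARNT KO 3 Cyp2d9 rose by 3.56 ± 0.41 (adjusted p = 0.00224). AHR Flox was 17.3, 17.6 and 33.3 CPM, above ARNT KO 3 and below ARNT KO 1 and 2, and AHR KO was 74.1, 27.3 and 38.9 CPM. The ARNT Flox libraries were the 3 lowest of the 12.

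For Cyp2c50 and Cyp2b13, ARNT Flox was again the group with the lowest mean, and ARNT KO 3 decided the call. Cyp2c50 was 99.2, 96.3 and 111 CPM in ARNT Flox, 449 and 398 CPM in ARNT KO 1 and 2 and 80.3 CPM in ARNT KO 3. Cyp2b13 was 152, 242 and 173 CPM, then 707 and 711 CPM, then 172 CPM. Replicates 1 and 2 were thus far above ARNT Flox and replicate 3 was inside or below its range. With all libraries the log2 changes were 1.60 ± 0.47 for Cyp2c50 and 1.49 ± 0.44 for Cyp2b13 (both adjusted p = 0.57). Without ARNT KO 3 they rose by 2.06 ± 0.21 (adjusted p = 0.00112) and 1.91 ± 0.25 (adjusted p = 0.00452). Cyp2d13, listed as a transcribed pseudogene, went from 146 to 153 CPM in ARNT Flox to 284 and 269 CPM in ARNT KO 1 and 2. It was 73.1 CPM in ARNT KO 3. Its change without that library was 0.89 ± 0.08 (adjusted p = 0.000624).

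Cyp2j6, a fatty acid epoxygenase, showed a small and even difference. It was 53.1, 59.3 and 58.6 CPM in ARNT Flox and 77.7, 69.6 and 75.0 CPM in ARNT KO, replicate 3 included. The log2 change was 0.38 ± 0.08 (adjusted p = 0.31 in edgeR and 0.0112 in DESeq2). Cyp2c44 was 320, 317 and 297 CPM in ARNT Flox and 204, 192 and 168 CPM in ARNT KO, without overlap (-0.73 ± 0.17, adjusted p = 0.37 in edgeR and 0.0156 in DESeq2). Cyp2u1 was 2.71, 2.07 and 1.76 CPM and then 4.16, 5.66 and 3.45 CPM, also without overlap (1.01 ± 0.28, adjusted p = 0.56). Groups did not overlap with ARNT KO higher for 3 members (6.12%, against 5.94% of all genes), Cyp2d9, Cyp2u1 and Cyp2j6. With ARNT KO lower this was so for 7 (14.3%, against 4.90%): Cyp2g1, Cyp2c44, Cyp2c70, Cyp2j9, Cyp3a44, Cyp3a57 and Cyp3a59. Cyp2j9 was at least 5.907 CPM in ARNT Flox and at most 5.897 CPM in ARNT KO. For Cyp3a57 these values were 0.377 and 0.345 CPM. Both gaps are less than the level of 3 counts. Without ARNT KO 3, 25 were higher (51%, against 19.2%) and 10 lower (20.4%, against 18.3%), the added lower ones being Cyp2a4, Cyp2a5 and Cyp2f2. Cyp2c70, which makes the mouse muricholic bile acids, was 528 to 601 CPM in ARNT Flox and 454 to 512 CPM in ARNT KO. Cyp3a44 was 53.4, 15.3 and 59.6 CPM and then 12.1, 8.45 and 2.70 CPM (-2.46 ± 0.81, adjusted p = 0.66).

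The partners did not separate. Por was 643, 828 and 943 CPM in ARNT Flox and 765, 843 and 660 CPM in ARNT KO, with a log2 change of -0.09 ± 0.19 (adjusted p = 1.00). Nr1i2 was 85.9, 124 and 128 CPM and then 116, 102 and 107 CPM. Nr1i3 was 275, 303 and 256 CPM and then 328, 295 and 173 CPM. For all 3 the groups overlapped. Over the 49 members the log2 change was above 0 for 29 (59.2%, against 52.6% of all genes), with a median of 0.06 against 0.01. Without ARNT KO 3 it was above 0 for 30 (61.2%, against 50.3%), with a median of 0.17 against 0.00.

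**Figure D4:**
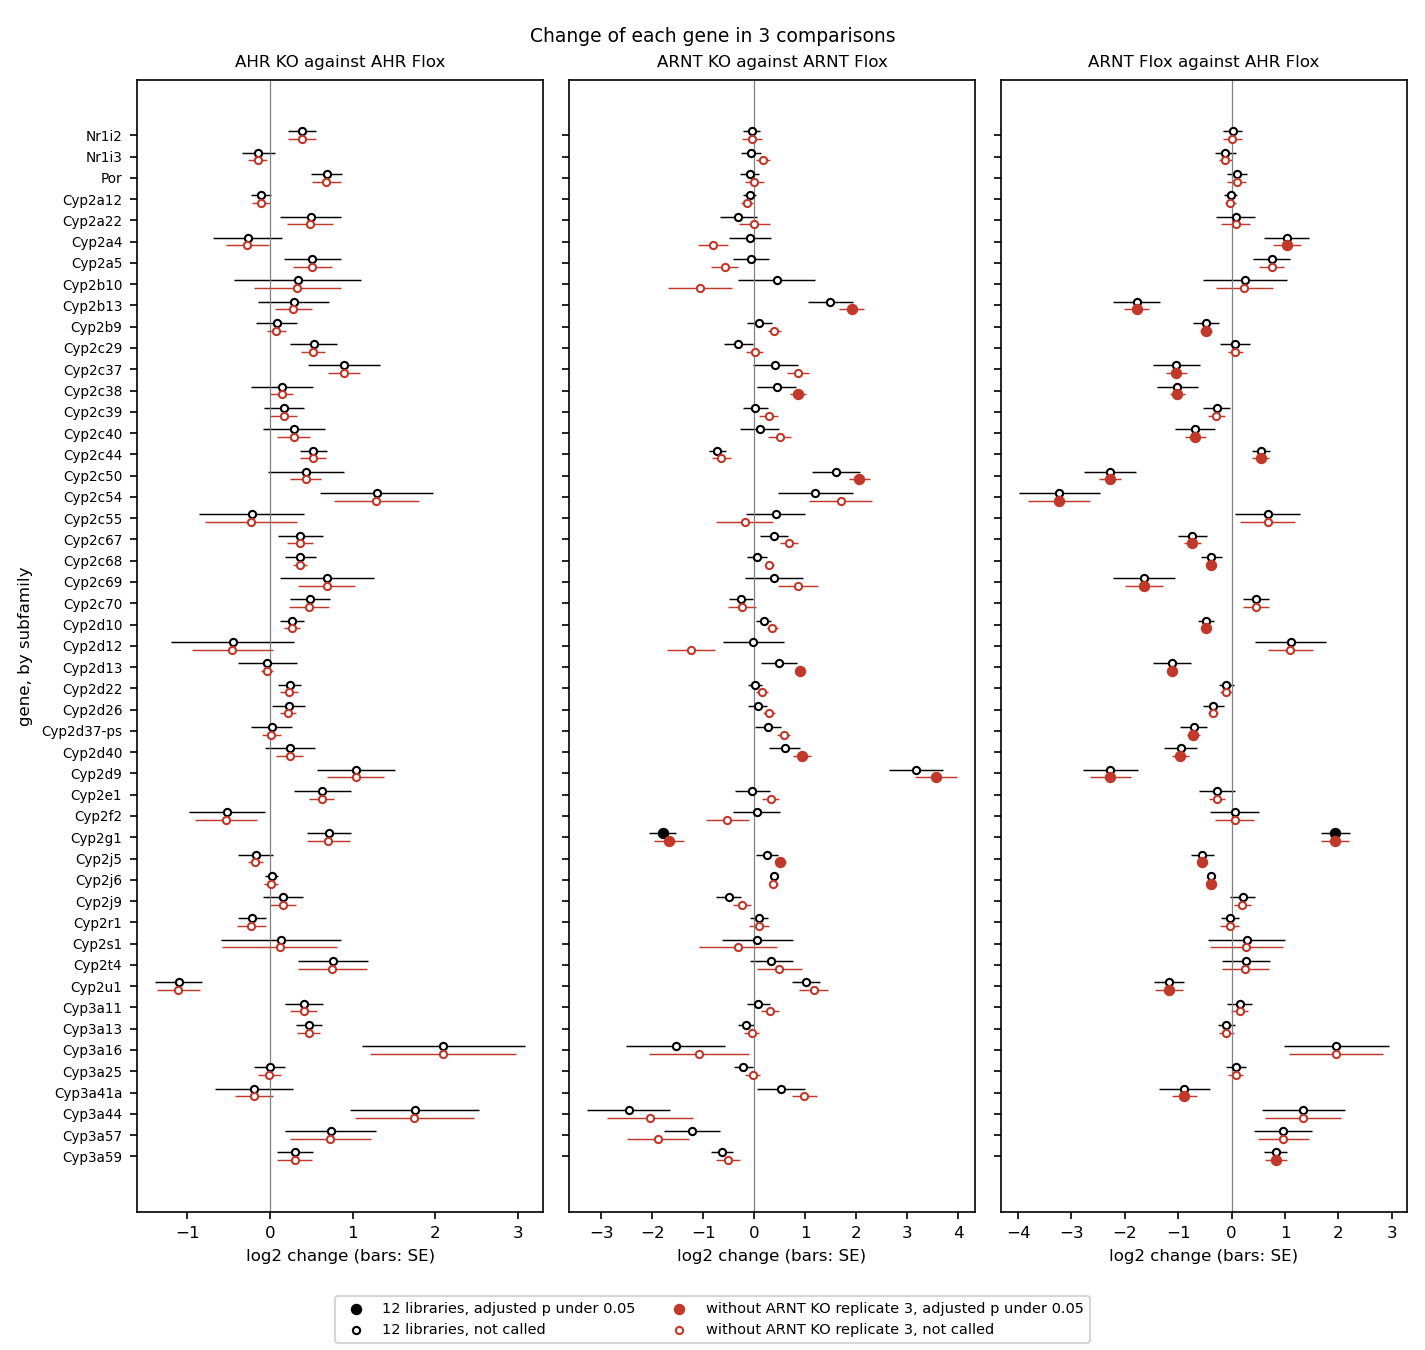
Points are the log2 change of each gene with its SE, in 3 comparisons, for all 12 libraries (black) and without ARNT KO 3 (red). Filled points passed the test. With 12 libraries only Cyp2g1 is filled, in ARNT KO against ARNT Flox and in ARNT Flox against AHR Flox, and without ARNT KO 3 there are 0, 8 and 23 filled points from left to right.

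Whether the change in ARNT KO differed from that in AHR KO was tested directly as the difference of the 2 changes. With all libraries 0 of 49 members passed (0.043% of all genes did). At an unadjusted p under 0.05 there were 11 of 49 (22.4%, against 9.51%), and DESeq2 called 3, Cyp2c44, Cyp2u1 and Cyp2g1 (1.08% of all genes). The difference was -2.51 ± 0.38 on the log2 scale for Cyp2g1 (adjusted p = 0.056). It was 2.11 ± 0.40 for Cyp2u1 and -1.25 ± 0.23 for Cyp2c44 (both adjusted p = 0.13). Cyp2u1 was thus lower in AHR KO and higher in ARNT KO than in its own Flox line in every library, and Cyp2c44 the reverse. Without ARNT KO 3, 8 members passed (1.38% of all genes). Cyp2d9, Cyp2d13, Cyp2c50, Cyp2u1, Cyp2j5 and Cyp2b13 were higher in the ARNT than in the AHR comparison (0.377% of all genes). Cyp2c44 and Cyp2g1 were lower (1% of all genes). For Cyp3a44 the difference was -4.22 ± 1.13 with all libraries (adjusted p = 0.29).

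The third comparison sets the 2 control lines side by side. ARNT Flox livers held less Cyp2b13, Cyp2c50, Cyp2c54, Cyp2d9 and Cyp2d13 RNA than AHR Flox livers, and more Cyp2g1, Cyp2a4 and Cyp3a59. With all 12 libraries in the fit 1 member passed, Cyp2g1, which was higher in ARNT Flox (0.329% of all genes were called, 0.136% as higher). At an unadjusted p under 0.05 there were 19 of 49 (38.8%, against 19.9% of all genes). The count of calls rested on ARNT KO 3, which is in neither group: without it 23 of 49 passed (10.9% of all genes), 4 higher (8.16%, against 6.38% of all genes) and 19 lower (38.8%, against 4.51%). With only the Flox libraries in the fit, 25 of 48 passed (52.1%, against 11.9% of 13584 genes), 5 higher (7.05% of all genes) and 20 lower (4.84%). DESeq2 on all libraries called 12 (4.18% of all genes). The log2 change was above 0 for 22 of 49 members (44.9%, against 49.9% of all genes). Both Flox groups also enter the comparisons above, so those results are not independent of this one.

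By non-overlap alone, 21 of 49 members were lower in every ARNT Flox than in every AHR Flox liver (42.9%, against 17.7% of all genes), and 8 were higher (16.3%, against 18.1%). Of the 13 Cyp2c genes, 8 were lower without overlap: Cyp2c37, Cyp2c38, Cyp2c40, Cyp2c50, Cyp2c54, Cyp2c67, Cyp2c68 and Cyp2c69. Cyp2c44 and Cyp2c70 were higher. Of the 8 Cyp2d genes, Cyp2d9, Cyp2d10, Cyp2d13, Cyp2d26, Cyp2d37-ps and Cyp2d40 were lower. Of the 8 Cyp3a genes, Cyp3a16, Cyp3a57 and Cyp3a59 were higher and Cyp3a41a lower. The remainder lower were Cyp2b13, Cyp2b9, Cyp2e1, Cyp2j5, Cyp2j6 and Cyp2u1, and the remainder higher Cyp2a4, Cyp2a5 and Cyp2g1.

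Cyp2c54 had the largest change of the 48 members tested with only the Flox libraries. It was 50.5, 63.7 and 62.2 CPM in AHR Flox and 7.62, 2.82 and 8.55 CPM in ARNT Flox. With only the Flox libraries it fell by 3.23 ± 0.32 on the log2 scale (adjusted p = 0.000982). With all 12 libraries the change was -3.22 ± 0.76 (adjusted p = 0.095). Cyp2c50, its neighbour on chromosome 19, was 415, 534 and 532 CPM and then 99.2, 96.3 and 111 CPM, and with only the Flox libraries it fell by 2.27 ± 0.12 (adjusted p = 4.76e-05; 0.077 with all 12). Cyp2d9 fell by 2.27 ± 0.28 in the same fit (adjusted p = 0.00248; 0.084 with all 12). Cyp2g1 was 3.92, 4.68 and 2.57 CPM in AHR Flox and 18, 11.6 and 13.5 CPM in ARNT Flox. It rose by 1.94 ± 0.27 with all 12 libraries (adjusted p = 0.0156) and by 1.94 ± 0.23 with only the Flox libraries (adjusted p = 0.00234).

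The pairs with nearly the same promoter can be set side by side. Cyp2b13 was 572, 724 and 649 CPM in AHR Flox and 152, 242 and 173 CPM in ARNT Flox, and Cyp2b9 was 563, 628 and 531 CPM and then 378, 437 and 422 CPM. Both are female-predominant genes, they stood at like levels in AHR Flox, and both groups of values were without overlap. With only the Flox libraries Cyp2b13 fell by 1.78 ± 0.17 (adjusted p = 0.000968) and Cyp2b9 by 0.47 ± 0.09 (adjusted p = 0.0177) on the log2 scale. In ARNT KO 1 and 2, Cyp2b13 was 707 and 711 CPM and Cyp2b9 563 and 513 CPM. In ARNT KO 3 they were 172 and 243 CPM. Whether the changes of the 2 genes of a pair differ was not tested, here or for the Cyp2a pair. Cyp2a4 was 753, 1003 and 738 CPM in AHR Flox and 1760, 1894 and 1447 CPM in ARNT Flox, and Cyp2a5 was 1368, 2145 and 1238 CPM and then 2503, 2892 and 2590 CPM. Here both genes were higher: with only the Flox libraries Cyp2a4 rose by 1.03 ± 0.15 (adjusted p = 0.00524) and Cyp2a5 by 0.75 ± 0.20 (adjusted p = 0.0414). The 2 Cyp2a genes share 50-base windows, and so do the 2 Cyp2b genes (10.8% of those of Cyp2b9 were shared with Cyp2b13). In either pair, reads of one gene may be counted to the other.

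Other members overlapped between the control lines. Cyp3a11 was 1048, 1415 and 1316 CPM in AHR Flox and 1441, 1544 and 1220 CPM in ARNT Flox. Cyp2a12 was 595 to 770 CPM and 637 to 712 CPM, and Cyp2r1, the vitamin D 25-hydroxylase, 12 to 15.5 CPM and 12.9 to 13.2 CPM. Por, Nr1i2 and Nr1i3 overlapped between the lines, with log2 changes of 0.10 ± 0.19, 0.02 ± 0.17 and -0.12 ± 0.20. Summed Kupffer cell markers were 293 to 450 CPM in AHR Flox and 454 to 463 CPM in ARNT Flox, and cholangiocyte markers 59.8 to 69.9 and 71.6 to 112 CPM. The sums were also higher without overlap in ARNT Flox for endothelial (182 to 208 and 212 to 253 CPM), stellate (232 to 303 and 307 to 384 CPM) and lymphocyte markers (4.51 to 6.03 and 6.83 to 9.67 CPM). The lymphocyte markers had a median log2 change of 0.87, with 0 of 6 called with all libraries and 3 (Cd3e, Cd3g and Nkg7) without ARNT KO 3. Of the 6 Kupffer cell markers, Clec4f and Cd5l were called without that library. Their part in the differences between the lines was not tested.

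Groups of members known from the literature were read by their counts. They were chosen with earlier results of these data known, and some genes are in more than 1 group. The counts are therefore independent neither of those results nor of each other. Of the 8 tested female-predominant genes, 6 were above 0 in AHR KO against AHR Flox (median 0.29) and 5 in ARNT KO against ARNT Flox (median 0.10), with 0 called in either. Of the 11 CAR- and PXR-inducible genes, 10 were above 0 in the AHR comparison (median 0.44, against 0.01 for all genes) and 8 in the ARNT comparison (median 0.41), with 0 called. All 7 genes of pericentral hepatocytes, among them Cyp2e1, Cyp2c29, Cyp2c37 and Cyp2a5, were above 0 in the AHR comparison (median 0.53), and 4 in the ARNT comparison (median 0.08). Over all genes, 51.1% were above 0 in the AHR comparison and 52.6% in the ARNT comparison.

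ARNT KO 3 moved these medians. Without it the ARNT comparison had a median of 0.44 for the female-predominant genes (5 of 8 above 0), 0.31 for the inducible genes (8 of 11) and 0.32 for the pericentral genes (6 of 7), where 50.3% of all genes were above 0. Called there (1.37% of all genes) were Cyp2b13 among the female-predominant genes, Cyp2c50 and Cyp2b13 among the inducible genes and Cyp2c50 among the pericentral genes. Between the Flox lines 0 genes of the 3 groups were called with all libraries. Without ARNT KO 3 (10.9% of all genes called), Cyp2a4 rose and Cyp2c40, Cyp2c69, Cyp3a41a, Cyp2b13 and Cyp2b9 fell in ARNT Flox, 6 of the 8 female-predominant genes. Of the inducible genes 5 of 11 fell (Cyp2c37, Cyp2c54, Cyp2c50, Cyp2b13 and Cyp2b9), and of the pericentral genes 3 of 7 (Cyp2c37, Cyp2c54 and Cyp2c50).

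The genes that serve these cytochromes from outside the families were read as lists. These held 13 regulators, 4 electron transfer genes, 12 heme genes, 18 CAR and PXR targets and 19 other liver cytochromes. With all 12 libraries 0 of them passed in either knockout comparison by edgeR (0.0788% of all genes in AHR KO and 0.0573% in ARNT KO). Of these genes Onecut1, a hepatocyte transcription factor, had a log2 change of 1.05 ± 0.38 in AHR KO (adjusted p = 0.30) and -0.92 ± 0.38 in ARNT KO (adjusted p = 0.79). Cyb5b, a cytochrome b5, had -0.42 ± 0.18 in AHR KO (adjusted p = 0.37), and Uros, a heme synthesis enzyme, -0.25 ± 0.09 (adjusted p = 0.27). Ces2a, a carboxylesterase, had 0.55 ± 0.20 in AHR KO (adjusted p = 0.31). Aldh1a1, a retinaldehyde dehydrogenase, had 0.72 ± 0.21 in ARNT KO (adjusted p = 0.57). Cyp1a2, the AHR target abundant in liver, was 431, 530 and 424 CPM in AHR Flox and 350, 283 and 310 CPM in AHR KO. In ARNT Flox livers it was 780, 836 and 743 CPM, against 291, 265 and 780 CPM for ARNT KO. ARNT KO 3 thus stood inside the ARNT Flox range. Without that library Cyp1a2 fell by 0.56 ± 0.11 in AHR KO (adjusted p = 0.0446) and by 1.50 ± 0.13 in ARNT KO (adjusted p = 0.000495). Of the other genes in these lists, Nr1h4 (FXR, the bile acid receptor) rose in ARNT KO without that library. Without it the conjugation and transport genes Ugt1a9, Gstm3 and Abcc4 fell in ARNT KO, and Abcc4 rose in AHR KO. The shares of all genes called without that library were 1.37% in ARNT KO and 0.966% in AHR KO. With it the directions turned for Gstm3, at 1278 CPM in ARNT KO 3 against 36.2 and 37.1 CPM in ARNT KO 1 and 2, and for Abcc4, at 106 CPM against 12.3 and 13.9 CPM. Their log2 changes in ARNT KO were then 1.16 ± 1.07 and 0.50 ± 0.64 (adjusted p = 0.98 and 1.00). Between the Flox lines 0 genes of these lists were called with all libraries (0.329% of all genes). Without ARNT KO 3 (10.9% of all genes), 3 regulators were lower in ARNT Flox and 0 electron transfer genes were called. Of the heme genes 1 was higher and 2 lower, of the CAR and PXR targets 5 and 1, and of the other cytochromes 2 and 1.

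The members of lowest level rest on few counts. Cyp2s1 was 0.0828 to 0.817 CPM over the 12 libraries, Cyp2t4 0.188 to 0.627 CPM and Cyp3a57 0.0953 to 0.582 CPM, next to the level of 3 counts given above. Cyp2d12 was 0.238, 0.273 and 0.331 CPM in AHR Flox and 0.228, 0.194 and 0.188 CPM in AHR KO. Its groups are apart by less than the level of 3 counts. So are those of Cyp3a57 between the control lines, at most 0.308 CPM in AHR Flox and at least 0.377 CPM in ARNT Flox.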

How the data were processed

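Total RNA of 12 liver samples was extracted with Trizol, enriched for poly-A RNA and made into NEBNext Ultra II libraries, per the labels' protocols. The authors deposited raw counts per gene. As software and genome build, the notes of the submitters list mm10, DESeq2 1.20.0, R 3.5.1, STAR (versions 2.5.4b and 2.6.0c) and bcl2fastq 2.20, with no role or order. The counting tool, its strand setting and its annotation are not named there. From the counts, genes were kept by edgeR's filterByExpr (minimum count 10, minimum total 15), which left 13968 genes with 99.98% of the reads. Counts were scaled by TMM, and contrasts were tested with edgeR 4.0.16's quasi-likelihood test (R 4.3.3), fitted to all 4 groups, with Benjamini-Hochberg adjustment over all genes and a threshold of 0.05. The SE of a log2 change in edgeR was not estimated separately. It was taken as the size of the change divided by the square root of the test's F statistic. The common biological coefficient of variation was 17.5%. The fit was tested on simulated counts first. Alternatives (20 in all) used other scalings, filters, DESeq2 1.42.0, limma 3.58.1 (voom), fewer groups, a replicate block, or left out each library in turn. The report names Por, Nr1i2, Nr1i3, the most abundant gene of each subfamily per kilobase, every member called in any contrast, the 5 smallest p per contrast and the 2 smallest p of each pathway list; other genes were named after their values were seen. The members and lists were chosen with earlier results of these data known. Lengths and shared 50-base windows come from GENCODE M21, and promoters from RefSeq GRCm38.p6.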

Additional observations from a re-analysis of the deposited data

How the results depend on the processing

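The number of members called depended on the tool and on single libraries, as did the share of all genes called, given here in brackets. For AHR KO against AHR Flox, 0 members were called in the edgeR fit (0.0788%) and 2 by DESeq2 (3.19%). For ARNT KO against ARNT Flox, 1 was called in the edgeR fit (0.0573%) and 4 by DESeq2 (0.402%). There were 0 by limma-voom (0.0358%) and 0 with only the groups of the contrast (0.00727%). For the difference of the changes, 0 were called (0.043%), 1 with no filter on low counts (0.0491%) and 3 by DESeq2 (1.08%). For ARNT Flox against AHR Flox, 1 was called (0.329%), 12 by DESeq2 (4.18%) and 25 with only the Flox groups (11.9%). Leaving out each library in turn gave 0 to 0 calls for AHR KO (0.0353% to 0.966%). For ARNT KO it gave 0 to 8 (0.00707% to 1.37%) and for the difference 0 to 8 (0.00706% to 1.38%). For the Flox lines it gave 0 to 23 (0.0848% to 10.9%). The highest counts came without ARNT KO 3, and so did the highest shares of all genes. Without AHR KO 1 there were 2 calls for ARNT KO (0.0918%) and 1 for the difference (0.0565%), and without any other single library 0 for both. For the Flox lines there were 0 without AHR Flox 1 (0.0989%), AHR Flox 3 (0.113%), ARNT Flox 1 (0.0851%) or ARNT Flox 3 (0.0989%). There were 2 without ARNT KO 1 (0.601%). Other than the construction of each alternative, the cause was not tested.

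Cyp2g1 was called in ARNT KO under 7 of 20 alternatives (adjusted p 2.02e-07 to 0.27) and in ARNT Flox under 16 of 20 (3.67e-09 to 0.086). Log2 changes near 0 in ARNT KO changed sign when libraries were left out: Por ran from -0.23 to 0.039 (without ARNT Flox 3; 0.00 without ARNT KO 3), Nr1i2 from -0.22 to 0.047 (without ARNT Flox 3; 0.02 without ARNT Flox 2) and Nr1i3 from -0.24 to 0.17 (without ARNT KO 3; 0.01 without ARNT Flox 2). Among the named members, 445 values kept direction and side of the threshold, 27 were newly past it, 17 were no longer past it and 6 changed sign. Members such as Cyp2s1, Cyp2t4 and Cyp3a57 are limited by depth.

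Pairing was checked on log2 CPM values first adjusted within each group, so the correlations given here are not those of the levels themselves. On that scale same-numbered libraries correlated at 0.0374, 0.0697 and 0.197 in the AHR lines and at 0.00928, 0.0373 and -0.0038 in the ARNT lines. Between the Flox lines they correlated at 0.362, 0.19 and 0.0948. Pairing was taken only where every correlation was over 0.1, which held in none of the 3. With a replicate block, 0 members were called for AHR KO (0.0716% of all genes) and 0 for ARNT KO (0.0215%). There were 0 for the difference (0.0286%) and 1 for the Flox lines (0.165%).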
